A study of Mus musculus with 10 samples.

Results

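The genes described here encode subunits of AP-1, a family of transcription factors that bind DNA as pairs of basic leucine zipper proteins. Members were found in the count table by gene symbol, from a list drawn up with earlier results of these data known. The names fixed were Fos, Fosb, Fosl1, Fosl2, Jun, Junb, Jund, Maff and Batf3, which is 9 genes. Of these, 8 were found among the 19999 genes of the count table and 7 had enough counts to be tested, among 16852 tested genes in all. Fosl1 was not analysed here, and Batf3 was too low to test.

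Total RNA of retina was sequenced from mice of the BALB/c strain, which is albino and has no pigment to shield the retina from light. The labels describe 5 libraries made to set up a light damage model and 5 control libraries, and all 10 names include vehicle, an agent that is not named further. The design text says that the study asks how a treatment, A74, protects the retina, and libraries given A74 were not analysed here. The age and sex of the animals, the light dose, and the time between exposure and tissue collection are not given in the labels, nor whether each library came from its own animal. The p-values therefore speak only to differences among these 10 libraries, part of which may be technical.

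Fos proteins (Fos, Fosb, Fosl1, Fosl2) do not pair with one another and bind DNA with a Jun partner, whereas Jun proteins (Jun, Junb, Jund) can pair with either kind. Fos, Fosb and Junb are immediate early genes, whose transcription is switched on within minutes by calcium, cyclic AMP and MAP kinase signals and whose mRNAs are short-lived. Jund is made steadily in most cells. In the mouse retina, Fos protein is known from knockout work to be needed for the death of photoreceptors after bright light.

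The start regions of Fos, Fosb, Junb and Jun were picked for printing by how these genes behaved across the libraries. Whether the regions bear on that behaviour was not tested. Fos passed the test between the groups, the mean ratio of Fosb to Junb was similar in both groups, and Jun was level. The window of each gene runs from 250 bases before to 50 bases after the start site that RefSeq annotates on build GRCm38.p6, printed 5′ to 3′ on the strand of the gene. The count table was made on another build (GRCm39, in the submitters' processing notes), so the windows were matched by symbol and not by position. Capitals mark TGACG, the core of the cyclic AMP response element. They also mark the TATA box, written out further on. The Fos window lies at chr12:85473640-85473939 on the plus strand, Fosb at chr7:19309996-19310295, Junb at chr8:84978699-84978998 and Jun at chr4:95052173-95052472, all 3 on the minus strand.
Fos: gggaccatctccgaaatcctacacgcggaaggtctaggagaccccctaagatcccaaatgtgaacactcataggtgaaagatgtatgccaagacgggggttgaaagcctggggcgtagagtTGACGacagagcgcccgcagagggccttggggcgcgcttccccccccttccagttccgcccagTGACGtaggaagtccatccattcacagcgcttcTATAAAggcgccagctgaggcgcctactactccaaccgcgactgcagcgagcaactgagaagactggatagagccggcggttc
Fosb: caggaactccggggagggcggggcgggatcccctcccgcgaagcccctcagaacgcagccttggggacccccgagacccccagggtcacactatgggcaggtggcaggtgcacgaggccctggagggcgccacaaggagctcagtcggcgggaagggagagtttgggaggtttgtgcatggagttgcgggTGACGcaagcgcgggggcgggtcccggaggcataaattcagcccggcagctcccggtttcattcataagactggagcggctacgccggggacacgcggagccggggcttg
Junb: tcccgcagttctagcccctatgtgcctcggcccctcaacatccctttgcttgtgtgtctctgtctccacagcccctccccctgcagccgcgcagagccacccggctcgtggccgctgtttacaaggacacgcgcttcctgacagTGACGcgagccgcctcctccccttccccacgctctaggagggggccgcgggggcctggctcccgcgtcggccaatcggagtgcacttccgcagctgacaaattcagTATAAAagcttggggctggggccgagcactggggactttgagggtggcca
Jun: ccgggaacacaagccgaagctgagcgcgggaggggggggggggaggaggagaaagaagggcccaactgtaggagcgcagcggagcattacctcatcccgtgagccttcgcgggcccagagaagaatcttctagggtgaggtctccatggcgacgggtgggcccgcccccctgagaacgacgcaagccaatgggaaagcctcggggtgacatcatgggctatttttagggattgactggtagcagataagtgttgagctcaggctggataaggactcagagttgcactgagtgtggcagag

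RefSeq windows were found for 8 of the 9 members, with more than 1 start for Maff, which made 10 windows. Both strands were searched for 5 motifs. The first was the full cyclic AMP response element TGACGTCA. The next was its core TGACG, which the full element contains. The others were the AP-1 site TGANTCA, the TATA box and the CArG box bound by serum response factor. TGACG was present for 4 members, and 20.8% of the 32851 windows in the RefSeq table held it. The count is by member and the share by window, and Maff had more than 1 window. Counted from the start site, it lay at -129 to -125 and at -66 to -62 in Fos, at -60 to -56 in Fosb and at -106 to -102 in Junb. The remaining member with it was Maff, which held the full element at -29 to -22 of its second start, an element present in 1.79% of all windows. The window of Maff start 3 held the core on the opposite strand, at -122 to -118. The TATA box letters TATAAA were found in Fos at -33 to -28 and in Junb at 1 to 6, against 13.6% of all windows. In Junb they begin at the annotated start site and not before it, so their role there is not known here. The AP-1 site (7.81% of all windows) and the CArG box (1.63%) had 0 matches among the members' windows. Sites more than 250 bases before a start were not searched, so these counts do not show that a gene lacks them. The Jun window held none of the 5, so it has no capitals. It does hold TGACATCA, which is close to the full element but which none of the 5 patterns covers. A match describes these letters only.

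Values per library are given as CPM, counts scaled to a common library size with TMM, a method that corrects for differences in library make-up. Library totals lay between 17900227 and 20337329 counts in light damage and between 14652535 and 20699236 in control, and all 10 rod markers looked at passed the filter on low counts. Some libraries stood apart. Light damage replicates 1 and 2 had 17174 and 20414 counts of Xist, an RNA of female cells, against 1 to 9 in the others. Their lens marker scores (the mean over 9 tested lens genes of log2 CPM, centred on all libraries) were 6.44 and 5.56, against -3.59 to 0.85 in the others. Control replicate 3 had the lowest value among the controls for 10 of the 10 rod markers. Light damage replicate 3 was the lowest of its group for 9 of the 10. In a whole tissue, fewer cells of a type and less RNA per cell cannot be told apart.

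In light-damaged retina, Fos mRNA was lower than in control retina, and it was the only one of the 7 tested members whose change passed the test with all 10 libraries. Over all 16852 genes, edgeR's quasi-likelihood test called 7.85% lower and 5.32% higher at a Benjamini-Hochberg adjusted p under 0.05. Among the members 1 was called lower and 0 higher, a count too small to set apart from the background. At an unadjusted p under 0.05, 2 members were lower and 0 higher. DESeq2 called 2 lower, Fos and Fosl2, and limma-voom called 1, while neither called any member higher. The median log2 fold change was -0.40 over the 7 members and 0.0016 over all genes tested, with 5 members below 0 and 2 above. This tilt depended largely on 1 library, control replicate 3. Without it, Fosb was at -0.06, Junb at 0.00, Jun at 0.08, Jund at 0.14 and Maff at 0.40. Fos and Fosl2 stayed lower in that fit, at -1.30 and -0.30.

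Fos was at 52.2, 53.6, 74.1, 57.4 and 47.8 CPM in control replicates 1 to 5. In light damage replicates 1 to 5 it was at 19.0, 19.8, 27.1, 20.99 and 20.3 CPM. The groups did not overlap, and the highest light damage library was well below the lowest control. Means were 57.0 ± 10.1 CPM in control and 21.4 ± 3.27 CPM in light damage (SD, n = 5 each), so that light damage held 37.6% of the control level. The log2 fold change was -1.41 (SE 0.12), with a 95% interval from -1.68 to -1.14 and an adjusted p of 0.000152 by edgeR's quasi-likelihood test. By p-value Fos ranked 5 among all genes tested. Without light damage replicates 1 and 2, the libraries with high Xist and lens scores, the log2 fold change was -1.32 (adjusted p = 0.00586 by edgeR). Without replicate 3 of both groups, the libraries with the lowest rod markers, it was -1.3999. Leaving out each library in turn gave values between -1.51 and -1.30, and the adjusted p stayed under 0.05 in all 10 of these fits.

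**Figure D1:**
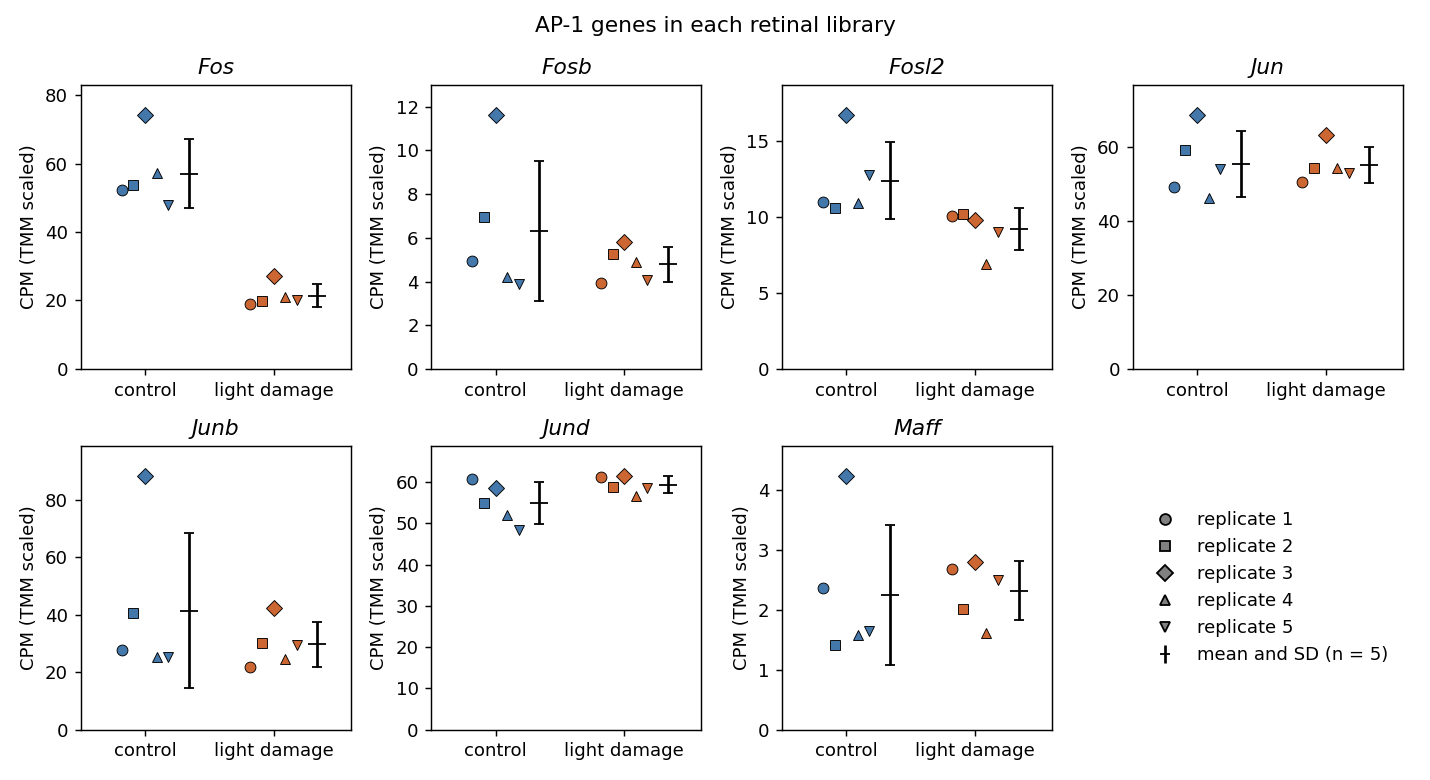
Each panel plots 1 gene in CPM (vertical axis from 0) for the 5 control libraries (blue) and the 5 light damage libraries (orange), with a symbol for each replicate number and the group mean and SD as a bar. Fos lies between 47.8 and 74.1 CPM in control and between 19.0 and 27.1 CPM in light damage, whereas Jun, Jund, Junb, Fosb and Maff overlap between the groups.

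Fosl2, which encodes the Fos family member Fra-2, was lower by a smaller amount. Its control values were 10.96, 10.5, 16.7, 10.9 and 12.7 CPM in replicates 1 to 5. In light damage they were 10.1, 10.2, 9.75, 6.87 and 8.96 CPM. The groups did not overlap, but the gap between the highest light damage library (10.2 CPM) and the lowest control (10.5 CPM) was narrow. Means were 12.4 ± 2.55 and 9.17 ± 1.37 CPM (SD, n = 5 each). The log2 fold change was -0.43 (SE 0.14, 95% interval -0.73 to -0.14), and the adjusted p of 0.051 by edgeR's quasi-likelihood test missed the threshold. Over all genes tested, 5.48% had every light damage library below every control library, and among the 7 members 2 did, Fos and Fosl2. DESeq2 put Fosl2 past the threshold (adjusted p = 0.0297), as did edgeR when the filter was a mean of 1 CPM or more (adjusted p = 0.0495). Leaving out control replicate 1 or 2 did so too (adjusted p = 0.0401 and 0.0467 by edgeR). Without control replicate 3, the highest library, the log2 fold change was -0.30 and the adjusted p 0.139 by edgeR.

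Fosb, the Fos family member also known for its long-lived ΔFosB form, was spread widely among the controls. It was at 4.93, 6.95, 11.6, 4.19 and 3.91 CPM in control replicates 1 to 5, and at 3.91, 5.27, 5.82, 4.87 and 4.06 CPM in light damage. The groups overlapped, and each light damage library lay within the range of the controls. On the log2 scale the change was -0.40 (SE 0.28, 95% interval -1.004 to 0.20, adjusted p = 0.351 by edgeR). It was -0.06 without control replicate 3, so that 1 library held most of the difference in means. Fosb rested on 57 to 214 counts a library.

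**Figure D2:**
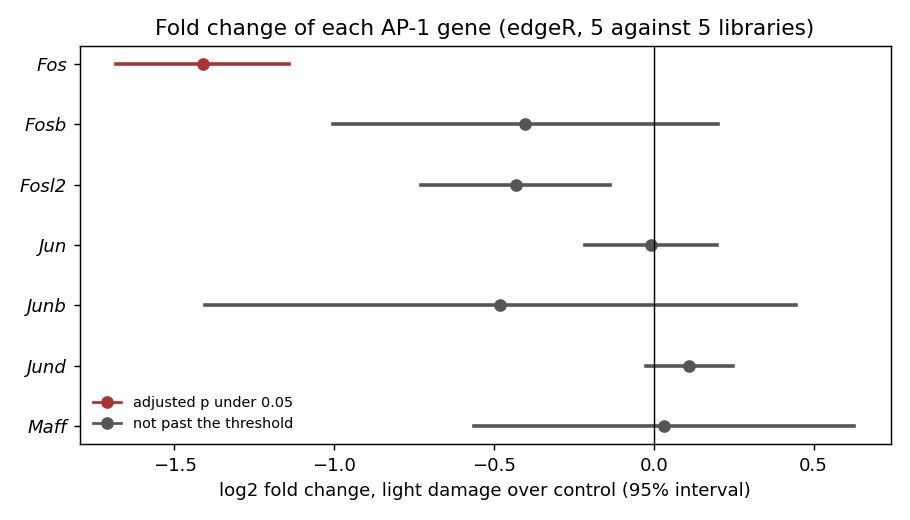
The horizontal axis gives the log2 fold change of light damage over control from edgeR's fit to all 10 libraries, with a point for each gene and a bar for its 95% interval, which is not adjusted for the number of genes. Fos stands at -1.41, away from the others, and Fosl2 at -0.43 has an interval below 0 although its adjusted p of 0.051 missed the threshold.

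Among the Jun partners, Jun itself was level between the groups. It had 49.0, 59.2, 68.5, 46.2 and 54.0 CPM in control and 50.3, 54.3, 63.3, 54.2 and 53.0 CPM in light damage. Means were 55.4 ± 8.84 and 55.0 ± 4.88 CPM (SD, n = 5 each). The log2 fold change was -0.01 (SE 0.10), and its 95% interval from -0.21 to 0.20 leaves room for a small change either way. Its sign turned in several of the other settings, with values between -0.06 and 0.08 over all of them.

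Junb, which is induced along with Fos but restrains the activity of Jun in many settings, varied most of the 7 among the controls. It was at 27.7, 40.7, 88.2, 25.1 and 25.3 CPM in control replicates 1 to 5, and at 21.8, 30.2, 42.3, 24.6 and 29.6 CPM in light damage. Control replicate 3 was more than double any other control, and the rest of the 2 groups overlapped. Its fold change on the log2 scale was -0.48 (SE 0.40, 95% interval -1.405 to 0.45, adjusted p = 0.462 by edgeR). Without control replicate 3 it was 0.00 (SE 0.22). The SD of log2 CPM over the 5 controls was 0.77 for Junb, and the median of that SD over all tested genes was 0.17.

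Jund, the steadily made member, was the most even. It was at 60.9, 55.0, 58.6, 52.0 and 48.4 CPM in control and at 61.4, 58.9, 61.5, 56.8 and 58.6 CPM in light damage. The log2 fold change was 0.11 (SE 0.06, 95% interval -0.02 to 0.25, adjusted p = 0.254 by edgeR), and it lay between 0.07 and 0.16 under every other setting tried. GENCODE M21 places Junos over Jun and Gm11175 over Jund, both antisense, and the end of Prdx2 over Junb on the opposite strand. Strand marking is not mentioned in the labels, and reads from these overlaps cannot be told apart. Junos had 15 to 52 counts a library, far fewer than Jun, and Prdx2 did not pass the test (log2 fold change 0.18, SE 0.06, adjusted p = 0.0677 by edgeR).

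Maff and Batf3 stand at the edge of the family. Maff encodes a small Maf protein, which lacks an activation domain and pairs with other leucine zipper factors. It was at 2.36, 1.41, 4.23, 1.59 and 1.64 CPM in control and at 2.68, 2.02, 2.79, 1.61 and 2.50 CPM in light damage, from 22 to 78 counts a library. Light damage over control gave a log2 fold change of 0.03 (SE 0.28, 95% interval -0.56 to 0.63), and 0.40 without control replicate 3 (adjusted p = 0.282 by edgeR). Batf3, a factor of dendritic cells that pairs with Jun proteins, had 0, 0, 3, 2 and 2 counts in control and 1, 0, 4, 1 and 0 in light damage. A count of 0 allows up to 3 counts, between 0.142 and 0.205 CPM across the 10 libraries, a limit that covers counting error only. The highest value, 4 counts in light damage replicate 3, was 0.189 CPM and above that library's limit of 0.142 CPM. With 7 counts over the controls and 6 over light damage, Batf3 did not pass the filter on low counts and no fold is given.

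To compare genes with one another, CPM was divided by the length of the longest annotated transcript in kilobases. In control retina, the order of mean levels was Jund at 33.0 ± 3.00, Fos at 27.1 ± 4.81, Junb at 22.9 ± 14.9 and Jun at 17.4 ± 2.77 CPM per kb (SD, n = 5 each). Fosl2 at 1.89 ± 0.389, Fosb at 1.67 ± 0.843 and Maff at 1.15 ± 0.596 CPM per kb followed far behind. Fosl2, Fosb and Maff did not differ from one another beyond their spread, and neither did Junb from Fos or from Jun. Fos and Jund overlapped as well, and in control replicate 3 they were at 35.15 and 35.12 CPM per kb. In light damage the order was Jund at 35.6 ± 1.19, Jun at 17.3 ± 1.53, Junb at 16.4 ± 4.34 and Fos at 10.2 ± 1.55 CPM per kb. Jun and Junb overlapped in light damage. By mean level, Fos thus came after Jund alone in control and after all 3 Jun genes in light damage. Per coding length the control order was Jun, Jund, Fos, Junb (55.3, 53.7, 50.0 and 40.1 CPM per coding kb), so the top places depend on the length used. In light damage Fos was below the 3 Jun genes on that scale as well, at 18.8 CPM per coding kb.

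The make-up of the 7 transcripts was then described within each library, which does not depend on scaling between libraries. Fos made up 25.8%, 24.6%, 23.7%, 30.1% and 26.2% of their summed CPM per kb in control replicates 1 to 5. In light damage replicates 1 to 5 its share was 11.6%, 11.4%, 13.2%, 12.8% and 11.8%. Fos, Fosb and Fosl2 together made up 29.4% ± 2.28 in control and 15.4% ± 0.671 in light damage (SD, n = 5 each), and the groups did not overlap. Jun, Junb and Jund together made up 69.5% ± 2.19 and 83.2% ± 0.617. Since the shares add up to a whole, the larger Jun share follows from the smaller Fos share and is no separate measurement.

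**Figure D3:**
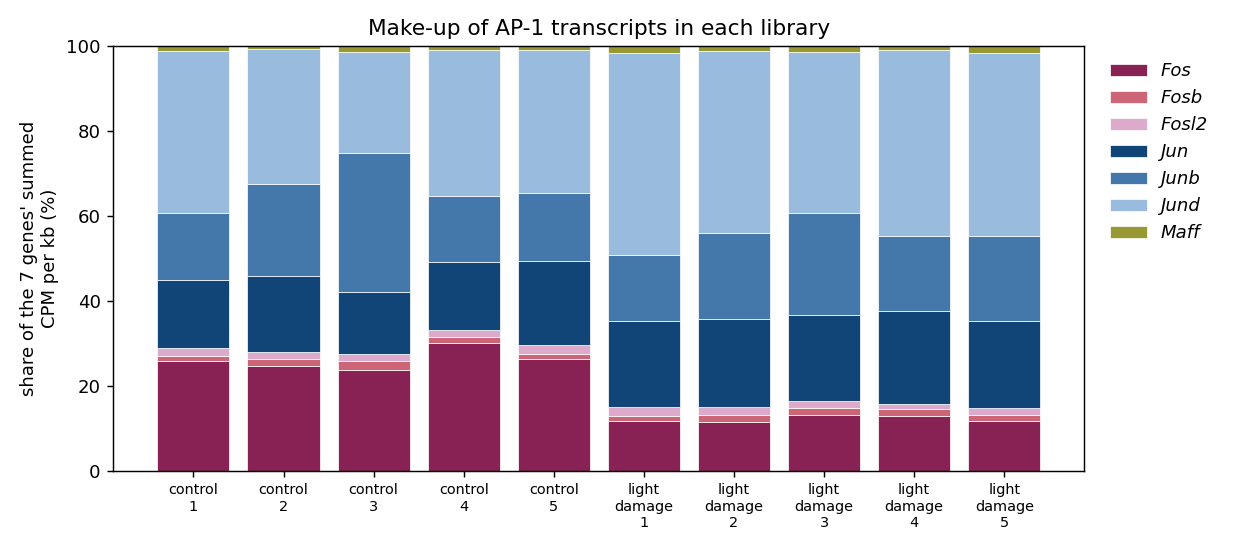
Each bar is 1 library, and its segments give each gene's share in percent of the summed CPM per kb of the 7 AP-1 genes. The Fos segment is between 23.7% and 30.1% in the controls and between 11.4% and 13.2% in light damage, and Junb is widest in control replicate 3 at 32.9%.

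The ratio of 2 members inside a library showed which of them kept step. The log2 ratio of Fos to Jund averaged 0.04 ± 0.21 in control and -1.48 ± 0.19 in light damage (SD, n = 5 each), without overlap. Against Jun it was 0.04 ± 0.20 and -1.37 ± 0.09, also without overlap. Fosl2 against Jund averaged -2.17 ± 0.29 and -2.71 ± 0.20, without overlap, but against Jun it overlapped. Fosb to Junb had a similar mean in both groups, -2.65 ± 0.17 in control and -2.61 ± 0.24 in light damage. Junb itself ranged from 21.8 to 88.2 CPM over the libraries, and the ratio from -2.93 to -2.34. In replicate 3, the highest of each group for Junb, the ratio was -2.93 in control and -2.86 in light damage. Fos to Junb averaged 0.63 ± 0.57 in control and -0.45 ± 0.21 in light damage. These overlapped because control replicate 3 was at -0.25, while the other 4 controls lay between 0.40 and 1.19. These ratios are descriptions and were not tested.

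Replicate 3 of each group was high in most of the tested members. Control replicate 3 was the highest control for 6 of the 7 tested members, all but Jund, and was the highest control for 21.2% of all genes tested. Light damage replicate 3 was the highest of its group for 6 of 7, all but Fosl2, and for 20.6% of all genes. Both held for 5 members, Fos, Fosb, Jun, Junb and Maff, and for 5.89% of all genes. Relative to the mean of the other 4 controls, control replicate 3 was 2.97 times as high for Junb, 2.41 times for Maff, 2.33 times for Fosb, 1.47 times for Fosl2, 1.404 times for Fos, 1.31 times for Jun and 1.08 times for Jund. In light damage replicate 3 the largest such ratio was 1.59, for Junb, and that of Fos was 1.36. Rod marker scores were lowest in the same libraries, -0.28 in control replicate 3 against -0.03 to 0.28 in the other controls, and -0.24 in light damage replicate 3 against -0.03 to 0.08. Whether this plays a part in their AP-1 levels was not tested.

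**Figure D4:**
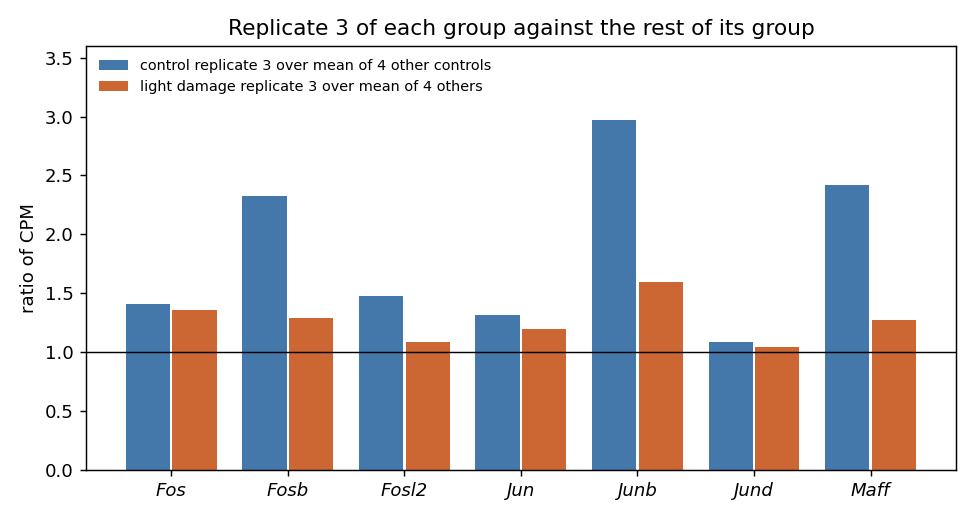
Bars give the CPM of replicate 3 divided by the mean of the other 4 libraries of its group, for control (blue) and light damage (orange), with a line at 1. Junb reaches 2.97 in control and 1.59 in light damage, whereas Jund is at 1.08 and 1.04.

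Of 16 other leucine zipper factors tested, which share partners or sites with AP-1 or small Maf proteins, 1 was called higher and 1 lower. Over all genes 5.32% were called higher and 7.85% lower, so the 12.5% called here is near the background. Their median log2 fold change was -0.04. Mafg, a small Maf protein, averaged 113 ± 14.4 CPM in control and 87.8 ± 10.3 CPM in light damage (SD, n = 5 each). This was a fall of log2 size -0.36 with an SE of 0.09, at an adjusted p of 0.021 by edgeR. Bach2, a repressor that pairs with small Maf proteins, averaged 5.95 ± 0.531 and 7.72 ± 0.631 CPM, which was 0.38 higher on the log2 scale with an SE of 0.11 and an adjusted p of 0.0392 by edgeR. Atf3, a stress-induced factor that pairs with Jun proteins, did not pass, with 11.7 ± 7.42 CPM in control and 9.64 ± 3.06 in light damage. It was at 24.4 CPM in control replicate 3 and at 6.34 to 12.2 CPM in the other controls. Maf, a large Maf protein singled out after its values were seen, was at 31.8, 23.5, 15.9, 13.1 and 16.1 CPM in light damage replicates 1 to 5 and at 12.4 to 13.2 CPM in control, and missed the threshold (log2 difference 0.64, SE 0.22, adjusted p = 0.0795 by edgeR). Without light damage replicates 1 and 2, neither Mafg nor Bach2 was called (adjusted p = 0.119 and 0.204 by edgeR), with log2 fold changes of -0.32 and 0.33. Mafg also missed the threshold when light damage replicate 1 or 3 was left out, at 0.0527 and 0.0567. Bach2 missed it without control replicate 3, 4 or 5 or light damage replicate 1, 2, 3 or 5, with adjusted p from 0.0564 to 0.0966 by edgeR.

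Of 26 genes that act upstream of AP-1, such as MAP kinases, partners of serum response factor and CREB factors, 3 fell and 1 rose. The 15.4% called is near the background of 7.85% lower and 5.32% higher over all genes. The median log2 fold change was -0.02. Elk4, a cofactor of serum response factor at immediate early genes, averaged 30.9 ± 2.57 CPM in control and 24.6 ± 1.57 CPM in light damage (SD, n = 5 each). Its log2 difference was -0.33 with an SE of 0.07, and edgeR gave an adjusted p of 0.00962. Mapk9, which encodes the Jun kinase JNK2, fell by 0.21 on the log2 scale and Map2k7, a kinase that activates Jun kinases, fell by 0.19. Mapk3, which encodes the MAP kinase ERK1, rose by a log2 fold change of 0.18. Their adjusted p were 0.0253, 0.0335 and 0.0454 by edgeR. Each of these 4 calls was lost without light damage replicates 1 and 2, where Elk4 had an adjusted p of 0.101 by edgeR. The log2 fold changes moved little in that smaller fit, to -0.28 for Elk4, -0.21 for Mapk9, -0.19 for Map2k7 and 0.18 for Mapk3. Elk4 stayed past the threshold without any single library. Mapk9 missed it without control replicate 3 or 5 or light damage replicate 1, 2, 3 or 4 (adjusted p from 0.0583 to 0.0678 by edgeR). Map2k7 missed it without control replicate 3, 4 or 5 or light damage replicate 1, 2, 3 or 4 (0.0604 to 0.093), and Mapk3 without any library but control replicates 1 and 4 (0.0515 to 0.109).

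Of 18 textbook AP-1 target genes tested out of 28 listed, 5 rose and 0 fell, with a median log2 fold change of 0.43. Over all genes 5.32% were called higher and 7.85% lower, and with so few targets a count of 0 lower cannot be set apart from that share. At an unadjusted p under 0.05 edgeR had 10 higher and 0 lower, and DESeq2 and limma-voom called 0 lower. Mt1, a metallothionein, averaged 31.5 ± 5.35 CPM in control and 48.3 ± 8.04 CPM in light damage (SD, n = 5 each). Its log2 difference was 0.62 with an SE of 0.13, and edgeR gave an adjusted p of 0.00962. Penk, an opioid precursor, was at 78.1, 51.8, 26.2, 47.7 and 7.74 CPM in light damage replicates 1 to 5 and at 5.72 to 9.60 CPM in control. Hmox1, a heme oxygenase, rose by a log2 fold change of 0.65. Without light damage replicates 1 and 2, the libraries with high lens scores, only Mt1 of these 5 was called (adjusted p = 0.0483 by edgeR). Some markers of other cell types were called higher in light damage too. Among Muller glia markers 4 of 9 were called higher, and their scores ran from -0.301 to -0.0411 in control and from -0.0351 to 0.446 in light damage, without overlap. Bipolar cell markers had 4 of 8 called higher, lens markers 3 of 9, microglial markers 1 of 10 and retinal pigment epithelium markers 1 of 8. Fold changes were above 0 for all 10 microglial and all 8 pigment epithelium markers. Amacrine markers had 2 of 8 called higher and rod markers 1 of 10, while cone, ganglion and endothelial markers had 0. Called higher without light damage replicates 1 and 2 were 1 Muller glia marker, 2 bipolar, 2 lens and 1 amacrine marker. The other marker lists had 0 called higher in that fit. The part of these markers' cells in the targets' values was not tested. Mt1 alone stayed past the threshold without any single library. Penk missed it without control replicate 2, 3, 4 or 5 or light damage replicate 1, 2 or 4 (adjusted p from 0.0517 to 0.0628 by edgeR), and Hmox1 without control replicate 2, 4 or 5 or light damage replicate 1, 2, 3 or 4 (0.0526 to 0.12).

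The genes most like Fos in pattern were sought among the 12114 other tested genes that averaged 5 CPM or more. Likeness was the root mean square difference in log2 CPM over the 10 libraries, after each gene's own mean was subtracted. The nearest were Nr4a1 at 0.17, Sik1 at 0.29, Fabp4 at 0.32, Egr1 at 0.34 and Zan at 0.36. The AP-1 members themselves were farther from Fos, with Fosl2 at 0.54, Fosb at 0.64, Junb at 0.66, Jun at 0.72, Jund at 0.78 and Maff at 0.84. Nr4a1, an orphan nuclear receptor, and Sik1, a salt-inducible kinase, had log2 fold changes of -1.14 (SE 0.10) and -0.97 (SE 0.08). Fabp4 was at -1.35 (SE 0.16, adjusted p = 0.000352 by edgeR) and Zan at -1.13 (SE 0.14, adjusted p = 0.00159 by edgeR). Egr1, an immediate early zinc finger factor, was at -1.49 (SE 0.32, adjusted p = 0.0216 by edgeR), and missed the threshold without light damage replicate 2 (adjusted p = 0.0562) and without replicates 1 and 2 (0.119). Genes with a fold change of another size cannot rank high on this measure.

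**Figure D5:**
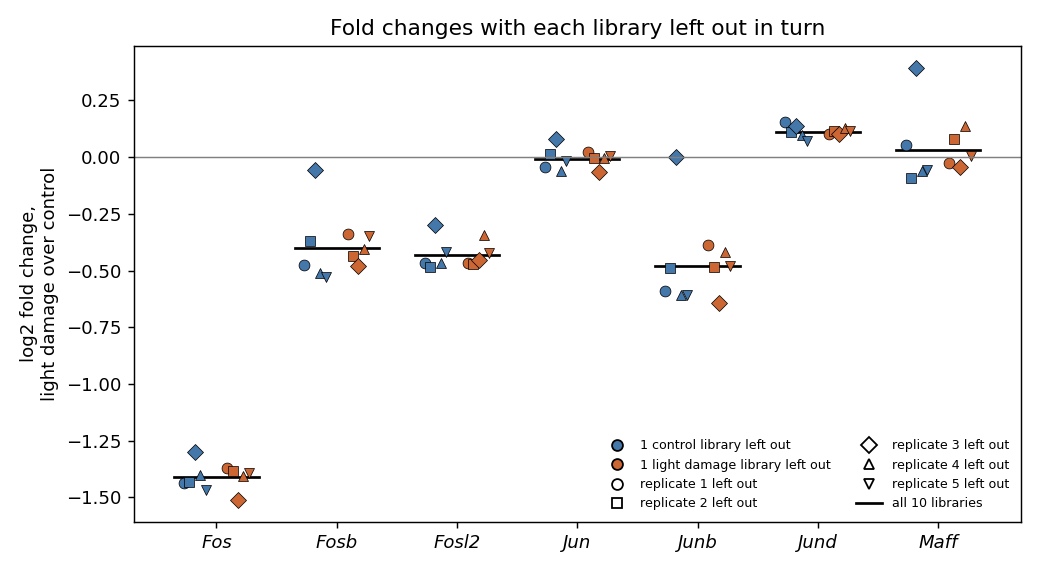
The vertical axis gives the log2 fold change of light damage over control for each gene, with a line for all 10 libraries and a symbol for each fit that left out 1 library, blue for a control and orange for a light damage library. Fos stays between -1.51 and -1.30, whereas leaving out control replicate 3 brings Junb to 0.00 and Fosb to -0.06 and takes Maff to 0.40.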

How the data were processed

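The deposited table gives counts as whole numbers, by gene and library. Per the submitters' processing notes, Bowtie2, RSEM 1.3.1, DESeq2 1.4.5 and the build GRCm39 were used, without their roles, so whether these are rounded estimates is not known here. Groups and replicate numbers came from the sample titles. Symbols came from GENCODE M21 (19892 of 19999 identifiers matched), with transcript and coding lengths. Its build is GRCm38, so its coordinates are not printed, and it was used by symbol for which genes overlap each other.

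The tests ran on edgeR 4.0.16 under R 4.3.3 (filterByExpr, TMM, robust quasi-likelihood test with group as the single term, Benjamini-Hochberg adjustment over all 16852 genes tested, threshold 0.05). Standard errors were derived from the F statistic, and a prior count of 2 went into log2 CPM. DESeq2 1.42.0, limma-voom (limma 3.58.1), other scalings and filters, a fit without robust dispersion, a replicate block and fits without libraries were alternatives. The fit without replicate 3 of both groups was chosen after seeing the data. The steps were tested on simulated data. Figures used Python 3.11.15 and matplotlib 3.10.9.

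The AP-1 members and the gene lists were chosen with earlier results of these data known. Named genes were all members, Atf3, the called genes of 3 lists (bZIP relatives, upstream genes, targets), and the 5 genes nearest to Fos. Some target genes are counted but not reported here by name. No 2 libraries held identical values.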

Additional observations from a re-analysis of the deposited data

Results flagged for a closer look

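Among 14 groups of 5 values (7 members in 2 groups), 2 had a library whose gap to the next was above Dixon's critical value of 0.71 of the group's range, a rule that chance meets in about 1 of 20 groups. Junb was at 88.2 CPM in control replicate 3, with a gap of 0.753 of the range, and the other 4 controls lay between 25.1 and 40.7 CPM. Fos was at 27.1 CPM in light damage replicate 3, with a gap of 0.751 of the range, and the other 4 light damage libraries lay between 19.0 and 20.99 CPM. The lowest control value of Fos, 47.8 CPM, was still above it.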

How the results depend on the processing

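Fos kept its direction and its call in all 20 other fits, with log2 fold changes between -1.51 and -1.30 and adjusted p up to 0.00586 by edgeR, DESeq2 or limma-voom. Members called lower were 1, and 2 (Fos and Fosl2) with DESeq2, with a minimum mean of 1 CPM, and with a replicate block; leaving out single libraries gave 1 to 2. Genes called over the whole table were 896 higher and 1323 lower. They were 135 and 268 without light damage replicates 1 and 2, and 280 and 523 without replicate 3 of both groups. Leaving out single libraries gave 399 to 1347 and 723 to 1644, and the replicate block gave 1431 higher and 1854 lower. With library totals alone 1147 were higher and 912 lower.

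Same-numbered libraries deviated together little, apart from number 3 (correlations over genes of 0.07, 0.06, 0.32, 0.05 and 0.06 for numbers 1 to 5). Control replicates 1, 2 and 3 and light damage replicates 3 and 4 matched their own number best, and the other libraries did not. The numbers were not taken as pairs, and the replicate block was fitted as an alternative. With the replicate block, Fos had a log2 fold change of -1.41 (SE 0.06, against 0.12 without the block). Fosl2 was at -0.42 with it (adjusted p = 0.0211 by edgeR). The block also gave 2 higher and 2 lower bZIP relatives and 2 higher upstream genes, while targets called higher went from 5 to 4, with Penk losing its call (adjusted p = 0.0587 by edgeR).

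Jun turned to 0.0017 with limma-voom, 0.0136 with library totals alone, 0.0014 with no filter on low counts, 0.0395 without light damage replicates 1 and 2 and 0.0246 without replicate 3 of both groups, and lay between -0.0635 and 0.0792 without single libraries. Over the latter Junb lay between -0.64 and 0.0024, Maff between -0.0936 and 0.40 and Atf3 between -0.43 and 0.17, and Atf3 was 0.0363 without replicate 3 of both groups. None of these passed the test in any fit.

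bZIP relatives were 1 higher and 1 lower, with 2 higher by DESeq2 or without robust dispersion, 0 lower with library totals alone, and 0 and 0 without light damage replicates 1 and 2 or without replicate 3 of both groups (0 to 2 higher and 0 to 1 lower without single libraries). Upstream genes were 1 higher and 3 lower, with 2 higher by DESeq2, 0 higher by limma-voom, 1 lower with library totals alone, and 0 and 0 without either set of libraries (0 to 2 and 1 to 4 without single ones). Targets called higher were 5, 1 without light damage replicates 1 and 2, and 1 to 7 without single libraries. The Fos share in control was 26.1% by transcript length and 22.7% by coding length. The difference in the log2 ratio of Fos was -1.53 to Jund and -1.41 to Jun. The causes were not tested. Depth limits Batf3, and Maff and Fosb rest on few counts.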

Other observations

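Control replicate 3 was also high in textbook AP-1 targets, a pattern looked for after its AP-1 values were seen. It was the highest control for 12 of the 18 tested targets and the lowest for 0. Over all genes tested it was the highest control for 21.2%. Its score over the list (mean log2 CPM, centred on all libraries) was 0.30, and the other controls lay between -0.46 and -0.32. Light damage replicates 1 to 5 scored 0.35, 0.58, 0.40, 0.10 and -0.17, so control replicate 3 fell inside the range of the light damage libraries. Gfap, an intermediate filament of reactive glia, was at 162 CPM in control replicate 3 and at 73.8, 106, 58.3 and 50.4 CPM in replicates 1, 2, 4 and 5. Vim, another intermediate filament of glia, was at 358 CPM there and at 146 to 184 CPM in the other controls. Lif, a cytokine that the injured retina makes, was at 4.66 CPM there and at 0.317 to 1.41 CPM in the others. The Muller glia list went the other way, since control replicate 3 was the lowest control for 5 of its 9 markers and the highest for 1, with a score of -0.27. The pigment epithelium list went the same way as the targets. Control replicate 3 was the highest control for 5 of its 8 markers and the lowest for 1. Its score there was 0.25, and the other controls lay between -0.97 and -0.11. Vim, Gfap and Lif did not pass the test between the groups (adjusted p = 0.228, 0.932 and 0.941 by edgeR), and they were named after their values were seen.

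Within its group, light damage replicate 3 did not stand out in the targets. It was the highest of its group for 4 of 18 and the lowest for 0. Its target score of 0.40 was nevertheless above the 0.30 of control replicate 3. Light damage replicate 3 was the highest of its group for 9 of 10 microglial markers and for 8 of 8 amacrine markers. Over all genes tested it was the highest of its group for 20.6%. Control replicate 3 was the highest control for 1 of 10 and 0 of 8 of these. Endothelial marker scores were alike in both, the highest of each group, at 0.18 in control replicate 3 and 0.27 in light damage replicate 3. The part of these markers in the AP-1 levels was not tested.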
